A study of Mus musculus with 6 samples.

Results

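The DNA replication machinery was followed through 47 genes in fully grown mouse oocytes that lack one or both catalytic subunits of Polycomb repressive complex 1 (PRC1). The genes were chosen by name, from origin licensing to the joining of Okazaki fragments, and each of the 47 stood on 1 row of a table of 24028 genes. RNA was measured in 6 libraries, each from 15 germinal vesicle stage oocytes pooled from 1 female of about 3 months. The 3 control libraries came from females of the genotype Ring1-/-; Rnf2 f/f. The 3 dKO libraries came from Ring1-/-; Rnf2 f/f; Zp3-cre females, in which the Zp3 promoter drives Cre recombinase in growing oocytes. All females had a mixed FVB, 129/Sv and C57BL/6J background, and all lacked Ring1. The comparison therefore asks what differs when Ring1-null oocytes also lose Rnf2, and an effect of the Cre transgene cannot be told apart from it. Values are FPKM, fragments scaled by transcript length and by the size of the library, so levels of different genes can be compared per length.

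Replication starts at origins that are licensed in advance. The origin recognition complex, Cdc6 and Cdt1 load the MCM2-7 helicase ring, the kinase Cdc7 with Dbf4 and the factors Cdc45 and GINS turn it into a moving helicase, and polymerases alpha, delta and epsilon copy the strands with the help of the clamp PCNA and its loader RFC. A germinal vesicle oocyte is arrested in meiotic prophase and does not replicate its DNA. It stores transcripts and proteins for the first S phases of the early embryo, when both parental genomes are copied before much new transcription takes place. In dividing somatic cells many of these genes are targets of E2F transcription factors, and their promoters often hold E2F sites.

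Promoter sequences are shown for 2 genes that fell, 1 that rose and the helicase gene with the most E2F letters, so that the letters can be set beside the calls. RefSeq windows (GRCm38.p6), which run from 250 bases before to 50 after an annotated gene start, were found for 39 of the 47 genes, in 49 windows. E2F letters, here TTTGGCGC and TTTCGCGC, and their reverse complements GCGCCAAA and GCGCGAAA, were searched on both strands, with overlaps counted. They stood in 11 of the 49 windows (22.4%), against 267 of all 32851 windows of the same length (0.813%). The windows also differed in composition, with a median GC content of 62.3% against 52.7% and a median of 24 against 7 CG pairs, and the part of this in the share with the letters was not tested. The letters CCAAT or ATTGG stood in 51.0% of the 49 windows and 37.4% of all windows. The stretches below run 5′ to 3′ along the gene, from 250 bases before the start to 20 after it, and capitals mark the E2F letters only.
Pole2: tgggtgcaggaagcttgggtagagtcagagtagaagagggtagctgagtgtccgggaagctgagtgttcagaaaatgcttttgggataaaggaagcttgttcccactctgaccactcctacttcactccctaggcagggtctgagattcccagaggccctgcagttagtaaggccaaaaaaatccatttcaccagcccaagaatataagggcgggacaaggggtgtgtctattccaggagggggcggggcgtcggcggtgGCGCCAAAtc
Cdc6: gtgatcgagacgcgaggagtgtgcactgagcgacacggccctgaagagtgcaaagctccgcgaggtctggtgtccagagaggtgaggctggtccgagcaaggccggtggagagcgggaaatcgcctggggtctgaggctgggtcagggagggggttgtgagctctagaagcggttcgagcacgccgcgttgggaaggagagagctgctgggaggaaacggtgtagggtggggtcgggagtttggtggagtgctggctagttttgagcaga
Mcm9: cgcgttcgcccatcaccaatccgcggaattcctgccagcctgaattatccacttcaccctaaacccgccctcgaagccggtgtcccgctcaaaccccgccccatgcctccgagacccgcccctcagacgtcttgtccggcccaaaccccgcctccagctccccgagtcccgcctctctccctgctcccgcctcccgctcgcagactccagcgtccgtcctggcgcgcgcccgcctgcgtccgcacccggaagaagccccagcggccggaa
Mcm6: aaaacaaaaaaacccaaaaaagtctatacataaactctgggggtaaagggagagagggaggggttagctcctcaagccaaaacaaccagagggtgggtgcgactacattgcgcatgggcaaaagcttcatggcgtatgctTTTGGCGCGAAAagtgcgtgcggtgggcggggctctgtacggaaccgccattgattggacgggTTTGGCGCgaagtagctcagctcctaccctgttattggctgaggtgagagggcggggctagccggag
These stretches lie at chr12:69228171-69228440 on the minus strand (Pole2), chr11:98907901-98908170 on the plus strand (Cdc6), chr10:53629938-53630207 on the minus strand (Mcm9) and chr1:128359686-128359955 on the minus strand (Mcm6). In Pole2 the letters begin 11 bases into the transcript. In Mcm6 they occur 3 times, 2 of them overlapping, with first bases 110, 106 and 47 before the start. In the printed stretches of Cdc6 and Mcm9, and in the rest of their windows, the E2F letters as defined here do not occur. Close variants such as GCGGGAAA, which stands in the printed Cdc6 stretch, were not searched. A window without the letters may therefore still hold another form of E2F site. Among tested replication genes with a window, 1 of the 11 with the letters fell and 0 rose, and 2 of the 27 without them fell and 2 rose. Pole, which also fell, had no window and is not in these counts. Among all tested genes with a window, 12.1% of the 157 with the letters rose and 6.37% fell, against 13.8% and 6.995% of the 8377 without them. A match describes the sequence and is not a measured binding site.

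Rnf2 itself stood at 53.7, 46.8 and 48.2 FPKM in control replicates 1 to 3 and at 14.8, 8.45 and 5.31 FPKM in dKO replicates 1 to 3, with no overlap between the groups. The sums of FPKM were 318273 to 327480 in controls and 278701 to 309549 in dKO libraries, and depth read from low values was lowest in dKO replicates 1 and 2 (0.660 and 0.807 of control replicate 1). Absolute depth is unknown. All 15 oocyte markers passed the filter described below, and 4 of them fell (Bmp15, Kit, Mos and Ooep), with a median log2 change of -0.59 over the list. All 4 lost their calls when any 1 control was left out, and Bmp15 also with the replicate block (limma adjusted p = 0.074). Bmp15, Mos and Ooep also lost them with no filter on low values and without dKO replicate 1. After quantile normalization Bmp15 and Ooep lost theirs. Of 19 granulosa and cumulus cell markers 9 were tested, 6 rose (the largest Ptgs2, Fshr, Nr2f2 and Wt1) and 0 fell. The rises were 66.7% of these tested markers and the falls 26.7% of the oocyte markers, against 14.0% and 7.04% of all tested genes. Ptgs2, Fshr, Nr2f2, Wt1 and Has2 reached 1 FPKM in dKO libraries only, and so passed the filter through them. The summed level of all 19 was 28.1 to 34.6 FPKM in controls against 67.6 to 76.2 FPKM in dKO libraries. Nr5a2 alone made up 51.4% of the control sum. Much of the difference lay in Ptgs2 (means 0.597 FPKM in controls and 15.9 FPKM in dKO libraries), Fshr (0.158 and 10.6) and Nr5a2 (16.5 and 25.5). After quantile normalization Wt1 lost its call (limma adjusted p = 0.155), and so did Has2, another of the 6. Has2 also lost its call without control replicate 2 or 3, and Nr5a2 when any 1 control was left out. Cyp19a1, the aromatase gene of the same list, named after its values were seen, lay the other way, at 11.3, 7.60 and 10.9 FPKM in controls against 5.23, 6.19 and 5.93 FPKM in dKO oocytes, with no overlap (log2 change -0.67, limma adjusted p = 0.05004). Within that list the defining markers Amh and Foxl2 stood at 0.0432 to 1.035 and 0 to 0.0972 FPKM in controls against at 0.122 to 0.684 and 0.0769 to 0.586 FPKM in dKO libraries, and Krt18 was at most 0.0807 FPKM. None of 11 theca and stroma markers passed the filter, although their sum was 0.797 to 1.11 FPKM in controls against 3.30 to 4.13 FPKM in dKO libraries. Of 11 endothelial and blood markers 3 were tested, with Pecam1 lower and 0 higher. Pecam1 lost its call in 5 of 15 alternatives. Granulosa cells had been stripped off by pipetting; they divide and use the same replication genes, and the part of these RNAs in the values below was not tested.

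Most replication genes were present at moderate levels in both groups, and few passed the test. Of the 47 genes, 46 had at least 1 FPKM in at least 3 libraries and were tested, and Pold1 was not. Their mean levels ran from 4.77 FPKM for Rfc5 to 107 FPKM for Pold3, with a median of 18.2 FPKM, against 8.55 FPKM for all 11334 tested genes. In the fit of log2(FPKM + 1) over all tested genes (limma, Benjamini-Hochberg adjusted p under 0.05), 2 of the 46 rose in dKO oocytes, Mcm9 and Fen1. In the same fit 4 fell: Pole2, Pole, Pold2 and Cdc6. These are 4.35% and 8.70% of the tested replication genes. Over all tested genes 14.0% rose and 7.04% fell, so the share that rose was below the background and the share that fell was near it. That background includes 2707 genes under 3 FPKM, of which 26.5% rose, and none of the 46 lay at that level. After quantile normalization 1191 of all tested genes rose and 1073 fell, where 1587 and 798 did on the deposited scale.

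**Figure D1:**
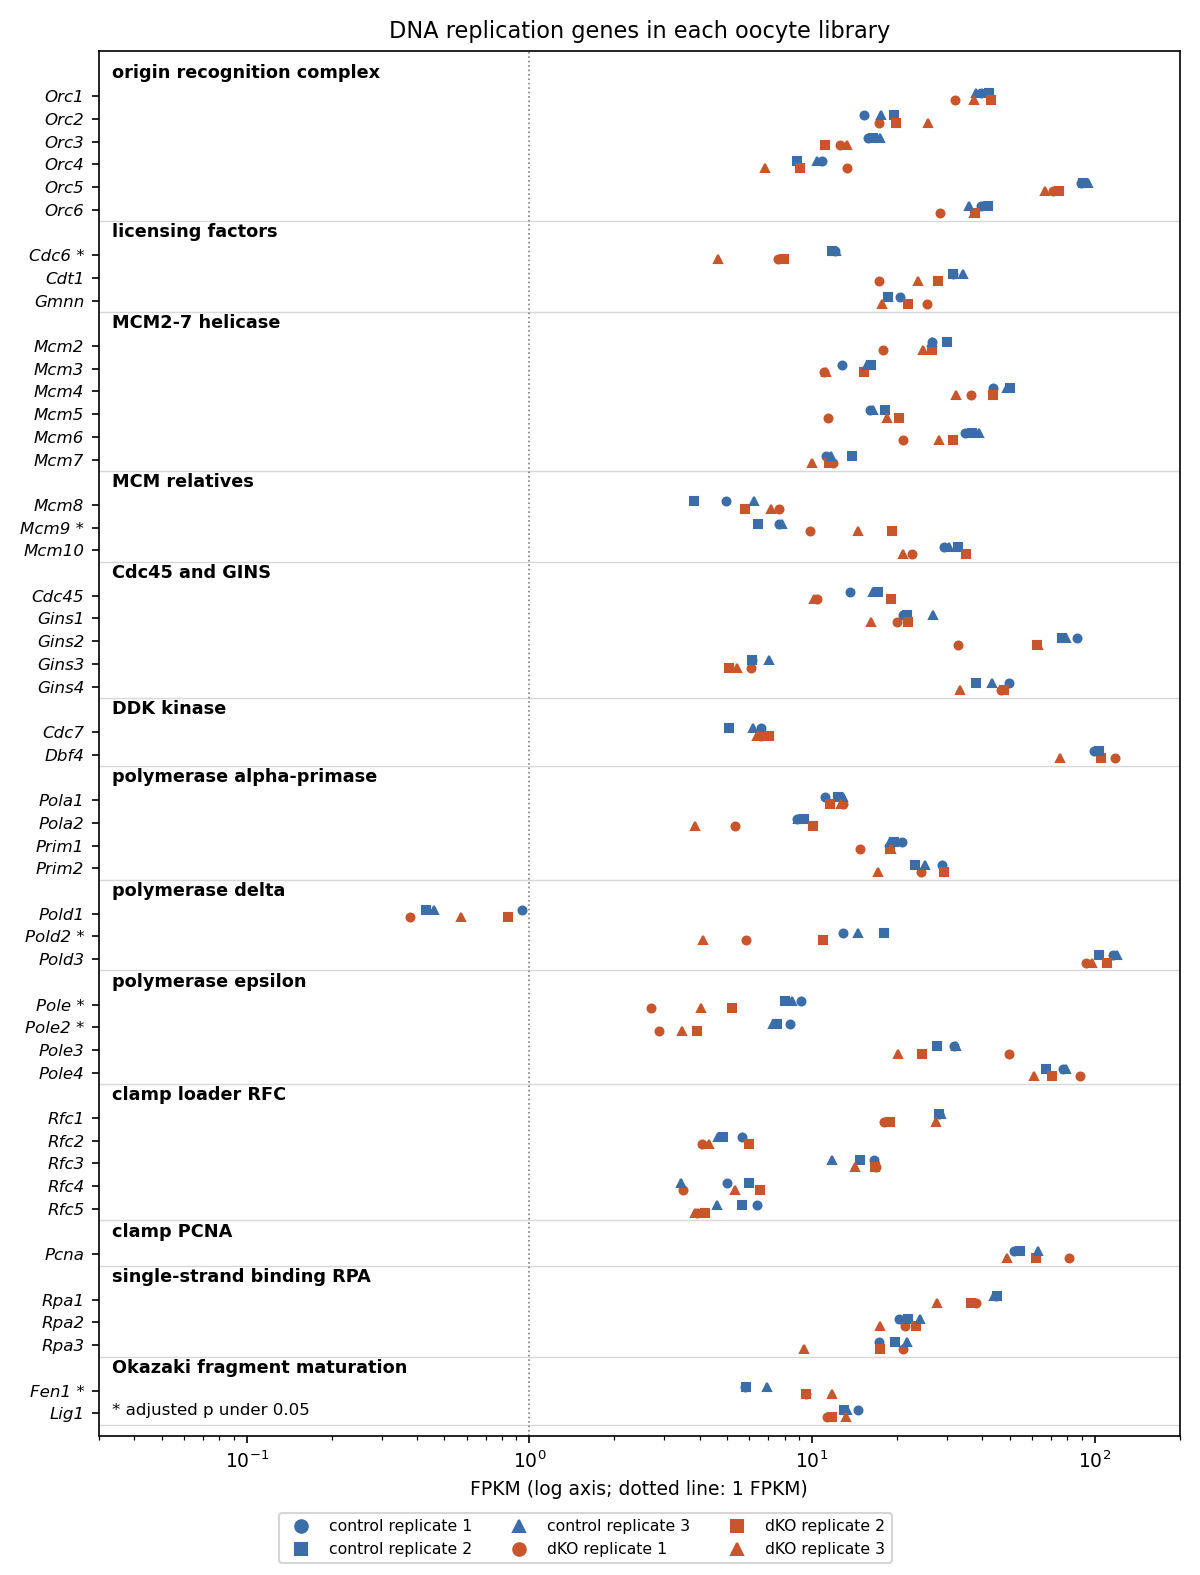
FPKM (log axis) of each of the 47 replication genes, by complex, with 1 point per library (blue control, orange dKO, 1 symbol per replicate number) and an asterisk for genes past the threshold. Only Pold1 lies under the dotted line at 1 FPKM in all libraries, and the groups overlap for most genes.

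The changes of the other genes were small and mostly downward. The log2 change was below 0 for 36 of the 46 genes and above 0 for 10, with a median of -0.17, while 51.4% of all tested genes were below 0, with a median of -0.019. A change of at least 1 log2 unit was found for 1 gene, Pold2. Every dKO library lay below every control for 13 of the 46 genes, against 19.2% of all tested genes, and every dKO library lay above every control for 2, against 22.3%. Among the 40 genes that did not pass, changes ran from -0.66 (Gins2) to 0.40 (Mcm8). For 38 of these 40 the limma 95% interval lay within 1 log2 unit on both sides of 0, and the exceptions were Gins2 and Pola2 (lower bounds of -1.22 and -1.18). A p that misses the threshold does not show that a gene was equal in both groups, and in bulk RNA a change in RNA per oocyte cannot be told apart from a change in the RNA from other cells. At an unadjusted p under 0.05, 2 genes were higher and 10 lower, with no matching count over all tested genes to set beside them. The 10 became 4, 5 and 4 without control replicates 1, 2 and 3, 13 without dKO replicate 2, 5 after quantile normalization and 7 with the replicate block.

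**Figure D2:**
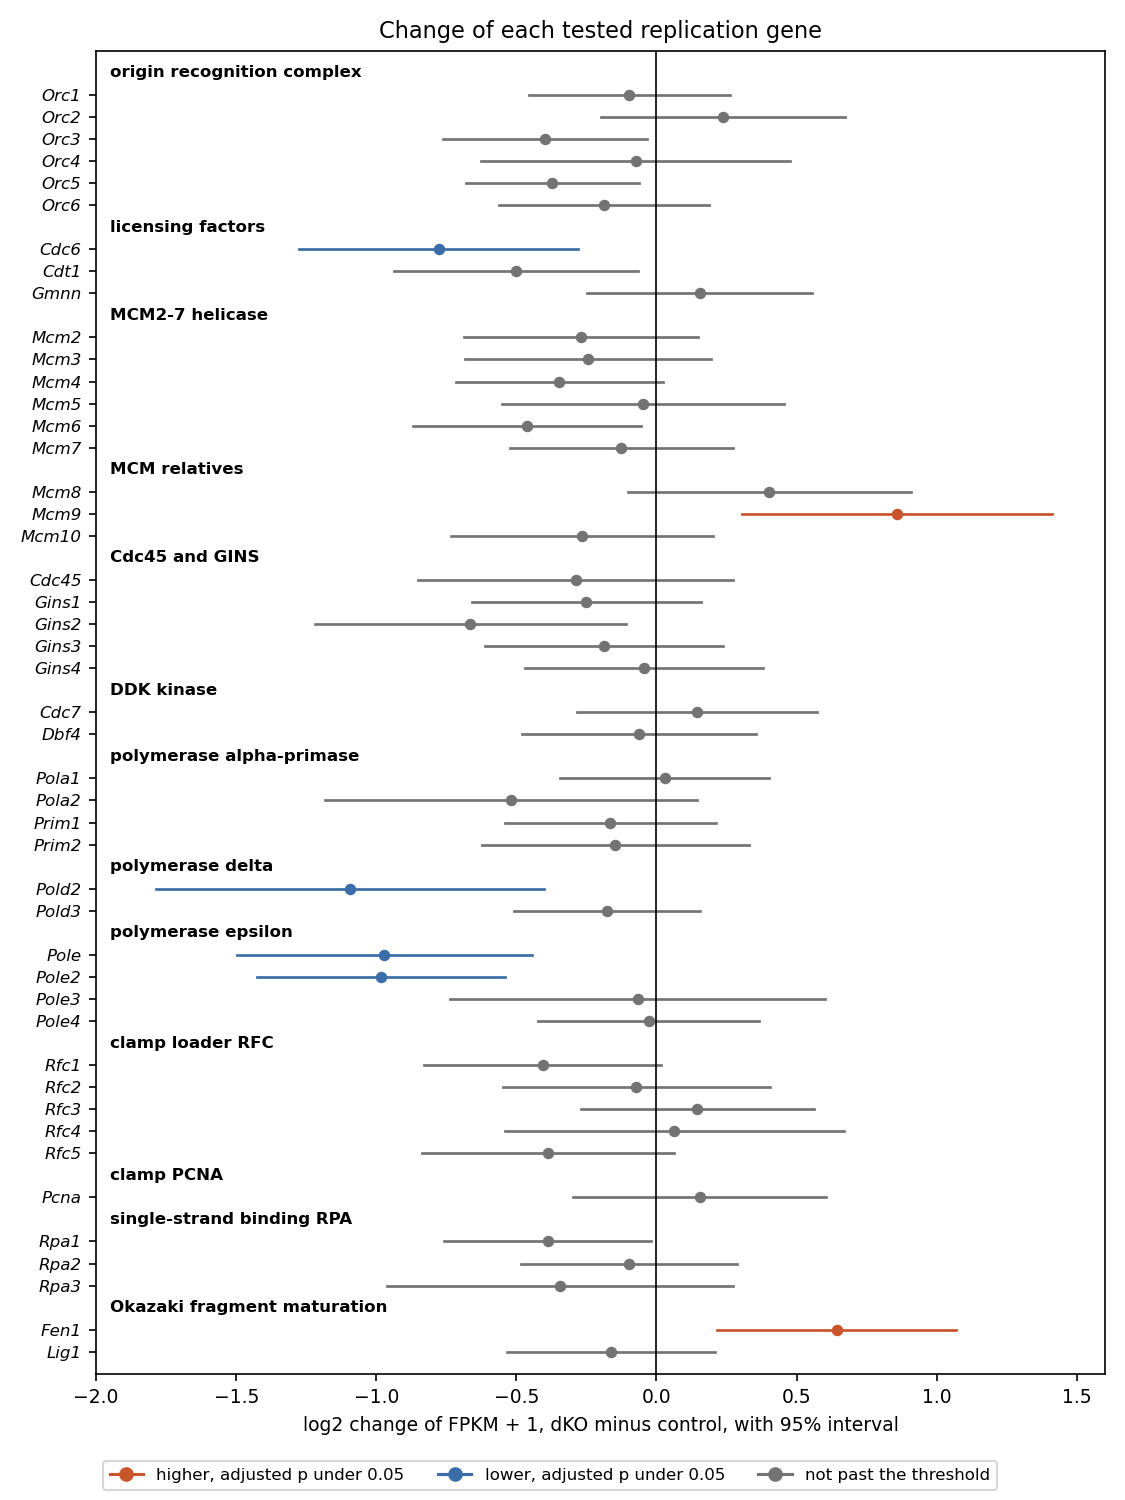
Log2 change (dKO minus control, FPKM + 1) of each of the 46 tested replication genes with its limma 95% interval, by complex. The 4 blue genes fell, the 2 orange genes rose, and the 40 grey genes did not pass the threshold, 32 of them with a point below 0.

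None of the 6 subunits of the origin recognition complex, the platform on which the helicase is loaded, passed the test, and 5 of their 6 changes were below 0. Orc5 was the most abundant, at 89.6, 91.0 and 94.97 FPKM in controls against 71.3, 74.7 and 66.5 FPKM in dKO oocytes. Every dKO library was below every control, but the change of -0.37 ± 0.14 (SE) had a limma adjusted p of 0.0849. Orc3 had the same order, with 15.8 to 17.3 FPKM in controls against 11.1 to 13.3 FPKM in dKO oocytes (log2 change -0.40, limma adjusted p = 0.113). Orc1, the largest subunit and an ATPase, averaged 39.97 ± 2.24 FPKM in controls against 37.5 ± 5.52 FPKM in dKO oocytes (SD, n = 3), and Orc6 39.2 ± 3.02 and 34.5 ± 5.26 FPKM. Orc2 and Orc4 had log2 changes of 0.24 and -0.075, with groups that overlapped. In the annotation, exons of Orc5 overlap the transcribed processed pseudogene Gm15421 on the same strand.

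Cdc6, the ATPase that joins the origin recognition complex to load the helicase, fell. Its level was 12.0, 11.8 and 12.2 FPKM in controls against 7.60, 7.97 and 4.66 FPKM in dKO oocytes. The controls had an SD of 0.192 FPKM and every dKO library lay below them, with dKO replicate 3 the lowest. The log2 change was -0.78 ± 0.22 (SE), with a limma adjusted p of 0.0356, and the dKO mean was 56.2% of the control mean. Cdt1, which brings the helicase to the origin, stood at 31.5, 31.5 and 34.2 FPKM in controls against 17.3, 28.0 and 23.7 FPKM in dKO oocytes. Those groups did not overlap either, but the change of -0.50 was not past the threshold (limma adjusted p = 0.0964). Gmnn, which encodes the Cdt1 inhibitor geminin, overlapped between groups, at 19.2 ± 1.08 and 21.7 ± 3.96 FPKM (SD, n = 3). The log2 ratio of Cdc6 to Gmnn was -0.72, -0.61 and -0.57 in controls and -1.63, -1.35 and -1.72 in dKO oocytes.

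None of the 6 subunits of MCM2-7, the replicative helicase, passed the test. All 6 changes were below 0 on the deposited scale, from -0.048 for Mcm5 to -0.46 for Mcm6, and Mcm5 alone crossed 0 after quantile normalization (0.0078). Mcm6 stood at 34.8, 36.9 and 39.0 FPKM in controls against 20.9, 31.5 and 28.1 FPKM in dKO oocytes. It was the only subunit whose groups did not overlap, with a log2 change of -0.46 ± 0.18 (SE), with a limma adjusted p of 0.102. Mcm4 stood at 43.6, 50.3 and 49.2 FPKM in controls against 36.5, 43.8 and 32.2 FPKM in dKO oocytes. Its dKO replicate 2 overlapped the lowest control, and the change of -0.35 was not past the threshold (limma adjusted p = 0.163). Mcm2 stood at 26.6, 29.9 and 26.5 FPKM in controls against 17.8, 26.6 and 24.8 FPKM in dKO oocytes. Mcm3 stood at 12.8, 16.1 and 15.7 FPKM in controls against 10.99, 15.3 and 11.2 FPKM in dKO oocytes. Both overlapped between groups, at log2 changes of -0.27 and -0.24. Mcm5 stood at 16.1, 18.1 and 16.4 FPKM in controls against 11.4, 20.2 and 18.5 FPKM in dKO oocytes. Mcm7 stood at 11.2, 13.9 and 11.7 FPKM in controls against 11.9, 11.5 and 9.97 FPKM in dKO oocytes. The subunits join the ring in equal numbers, yet their control means ordered as Mcm4 (47.7), Mcm6 (36.9), Mcm2 (27.7), Mcm5 (16.9), Mcm3 (14.9) and Mcm7 (12.2 FPKM). Of neighbours in that order, the ranges of Mcm5 and Mcm3, and of Mcm3 and Mcm7, overlapped across control libraries, while the upper 4 were separate from each other. Within each control library, however, Mcm5 was above Mcm3 and Mcm3 was above Mcm7.

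Mcm9, which with Mcm8 forms a helicase for homologous recombination repair and fertility rather than for bulk replication, rose. Its level was 7.64, 6.45 and 7.85 FPKM in controls against 9.85, 19.2 and 14.5 FPKM in dKO oocytes, so every dKO library lay above every control. The log2 change was 0.86 ± 0.24 (SE), with a limma adjusted p of 0.0365, and the dKO mean was 198.5% of the control mean. With no filter on low values the call was lost (limma adjusted p = 0.0760). Exons of Mcm9 overlap those of Asf1a on the other strand, and the use of strand is not given in the sources used here. Asf1a, a histone chaperone gene, stood at 87.3 FPKM on average in controls and 70.7 FPKM in dKO oocytes (log2 change -0.32, limma adjusted p = 0.263), the opposite direction. Mcm8 stood at 4.94, 3.81 and 6.23 FPKM in controls against 7.63, 5.78 and 7.17 FPKM in dKO oocytes, with an overlap and a log2 change of 0.40 (limma adjusted p = 0.230). The difference between the changes of the partners was small against the spread: the log2 ratio of Mcm9 to Mcm8 was 0.46 higher in dKO oocytes (exact two-sided permutation p = 0.3). Mcm10, which helps to activate the replicative helicase, had 30.9 ± 1.75 and 26.2 ± 7.74 FPKM (SD, n = 3).

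None of the genes for Cdc45, the GINS subunits and the kinase Cdc7-Dbf4 passed the test. Gins2 came nearest, at 86.4, 76.8 and 79.1 FPKM in controls against 32.8, 62.4 and 62.9 FPKM in dKO oocytes. The groups did not overlap, but dKO replicate 1 was far below the other dKO libraries, and the change of -0.66 ± 0.25 (SE) had a limma adjusted p of 0.0876. The groups also did not overlap for Gins3, which was the lowest of the GINS genes, at 6.11 to 7.07 FPKM in controls against 5.08 to 6.10 FPKM in dKO oocytes. Gins1, Gins4 and Cdc45 had log2 changes of -0.25, -0.044 and -0.29, and Gins4 turned to 0.0815 after quantile normalization. Dbf4, the activating subunit of the kinase, was among the most abundant replication transcripts, at 99.4, 103 and 104 FPKM in controls against 118, 105 and 75.5 FPKM in dKO oocytes. The dKO libraries lay on both sides of the controls. The catalytic subunit Cdc7 was far lower, at 5.97 ± 0.784 and 6.68 ± 0.324 FPKM (SD, n = 3).

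Polymerase epsilon, which copies the leading strand, showed the most falls of any complex, with 2 of its 4 subunits lower. Pole, the catalytic subunit, stood at 9.17, 8.03 and 8.497 FPKM in controls against 2.698, 5.19 and 4.05 FPKM in dKO oocytes. Pole2, the accessory subunit that ties the polymerase to the helicase, stood at 8.33, 7.497 and 7.30 FPKM in controls against 2.87, 3.91 and 3.46 FPKM in dKO oocytes. For both, every dKO library lay well below every control. The log2 changes were -0.97 ± 0.23 (SE), with a limma adjusted p of 0.0180 and -0.98 ± 0.19 (SE), with a limma adjusted p of 0.00759, and the dKO means were 46.4% and 44.3% of the control means. Pole3 and Pole4 encode small histone-fold subunits, which also handle histones and, for Pole3, serve in a chromatin remodeller. Pole3 stood at 31.9, 27.7 and 32.4 FPKM in controls against 49.8, 24.5 and 20.2 FPKM in dKO oocytes, and Pole4 at 77.0, 67.3 and 78.9 FPKM in controls against 89.0, 70.8 and 61.1 FPKM in dKO oocytes. In both cases the dKO libraries lay on either side of the controls, with log2 changes of -0.067 and -0.028 that turned to 0.045 and 0.12 after quantile normalization. The log2 ratio of Pole to Pole3 was 0.91 lower in dKO oocytes and that of Pole2 to Pole4 was 0.96 lower. In each the groups did not overlap, and the exact two-sided permutation p was 0.1, the smallest that 3 against 3 libraries can give (0.12 adjusted over 6 pairs). These 6 pairs, which include the ratios given for the other complexes, were chosen after the values were seen. Each sets a called gene over an uncalled one. Their p-values do not account for that choice and add no support to the calls. Exons of Pole overlap the antisense gene Gm15792, and exons of Pole2 overlap the annotated gene Gm49384 on the same strand.

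Polymerase delta, which copies the lagging strand, held both a fall and the only gene that was too low to test. Pold1, its catalytic subunit, stood at 0.939, 0.431 and 0.460 FPKM in controls against 0.378, 0.837 and 0.572 FPKM in dKO oocytes, near 0 in both groups and overlapping. Pold2, the accessory subunit that binds it, stood at 12.8, 18.0 and 14.5 FPKM in controls against 5.85, 10.9 and 4.12 FPKM in dKO oocytes. All dKO libraries lay below all controls, with dKO replicate 2 the nearest to them. The log2 change was -1.09 ± 0.30 (SE), with a limma adjusted p of 0.0339, and the dKO mean was 46.1% of the control mean. Pold3, the subunit with the PCNA-binding tail, stood at 116, 104 and 120 FPKM in controls against 92.9, 111 and 97.6 FPKM in dKO oocytes. It was the highest of all 47 genes, its groups overlapped, and its change was -0.18 (limma adjusted p = 0.425). The log2 ratio of Pold2 to Pold3 was 0.92 lower in dKO oocytes, with no overlap (exact two-sided permutation p = 0.1, 0.12 adjusted).

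**Figure D3:**
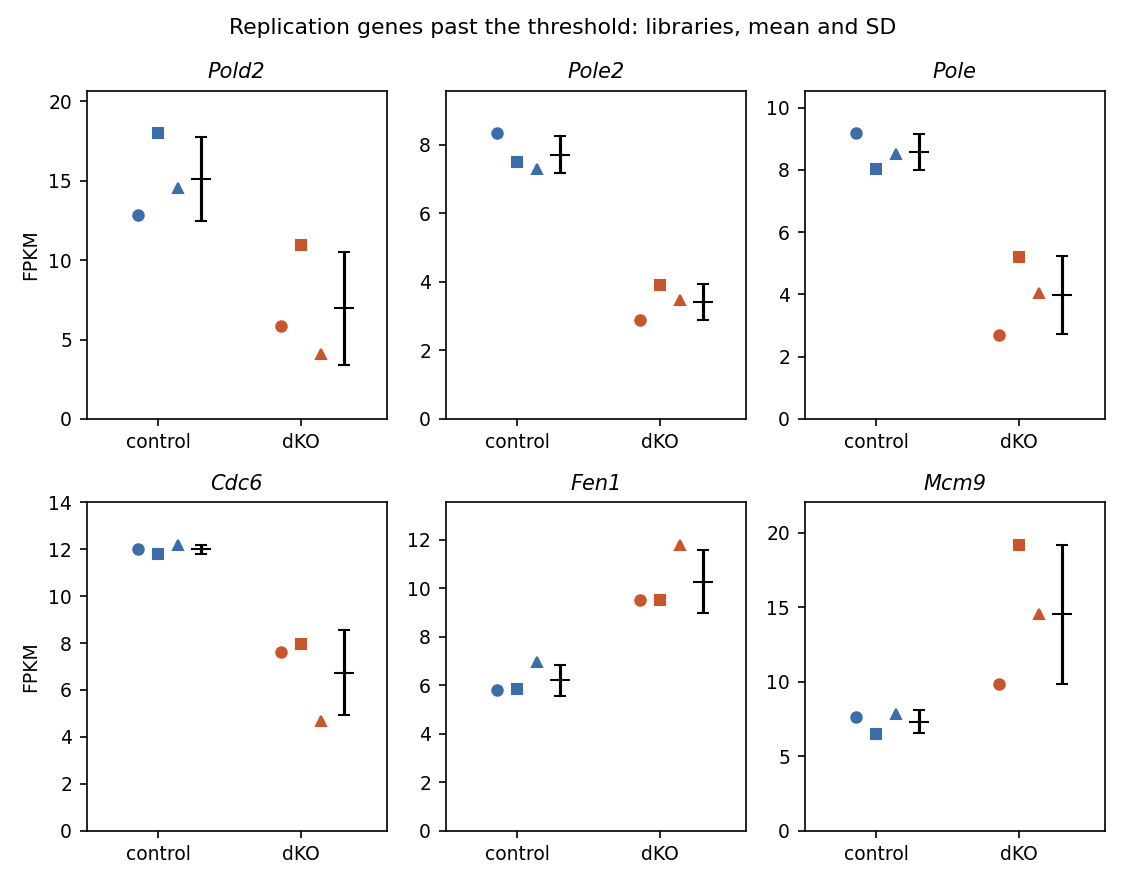
FPKM of the 6 replication genes past the threshold in each library (circle, square and triangle for replicates 1, 2 and 3), with the group mean and SD (n = 3) beside the points. For Pold2, Pole2, Pole and Cdc6 all dKO points lie below all controls, and for Fen1 and Mcm9 all lie above.

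Polymerase alpha and primase, which make the short primers, had 0 of 4 genes past the threshold. Its highest subunit Prim2 stood at 28.8, 23.1 and 25.1 FPKM in controls against 24.2, 29.3 and 17.2 FPKM in dKO oocytes, and the catalytic Pola1 was nearly level, at 12.1 ± 0.907 and 12.4 ± 0.683 FPKM (SD, n = 3). Pola2 had the largest change of the 4 (-0.52), with dKO replicate 2 above all controls and the other dKO libraries below them. Pcna, the sliding clamp, stood at 51.7, 54.5 and 63.1 FPKM in controls against 81.1, 61.8 and 49.1 FPKM in dKO oocytes, which overlapped, and it has named pseudogenes with which reads may be shared. Of the 5 clamp loader genes 0 passed. Rfc1, the large subunit, stood at 28.1, 28.1 and 28.5 FPKM in controls against 17.9, 18.9 and 27.4 FPKM in dKO oocytes, with dKO replicate 3 close to the controls (log2 change -0.41, limma adjusted p = 0.155). The groups of Rfc5 did not overlap (4.61 to 6.41 and 3.85 to 4.19 FPKM, log2 change -0.39), and Rfc2, Rfc3 and Rfc4 had changes of -0.073, 0.15 and 0.064.

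RPA, the heterotrimer that coats unwound DNA, had 0 of 3 subunits past the threshold. Rpa1, the large DNA-binding subunit, stood at 44.7, 45.1 and 44.0 FPKM in controls against 38.1, 36.6 and 27.8 FPKM in dKO oocytes. The groups did not overlap, and the change of -0.39 had a limma adjusted p of 0.125. Rpa2 and Rpa3 overlapped between groups, with changes of -0.097 and -0.34. Fen1, the flap endonuclease that trims Okazaki fragments before they are joined, rose. It stood at 5.78, 5.86 and 6.95 FPKM in controls against 9.51, 9.49 and 11.8 FPKM in dKO oocytes, with every dKO library above every control. The log2 change was 0.64 ± 0.19 (SE), with a limma adjusted p of 0.0409, and the dKO mean was 166% of the control mean. With the replicate number, which marks a shared lane, as a block, the limma adjusted p was 0.0506, so the call was lost, as it was after quantile normalization (0.0877) and with array weights (0.0517). Exons of Fen1 overlap Tmem258 and Gm10143 on the other strand. Tmem258 averaged 14.7 FPKM in controls against 11.3 FPKM in dKO oocytes (log2 change -0.42, limma adjusted p = 0.439). Lig1, the ligase that seals the fragments, stood at 14.6, 13.0 and 13.3 FPKM in controls against 11.3, 11.8 and 13.1 FPKM in dKO oocytes and overlapped. The log2 ratio of Fen1 to Lig1 was -1.20, -1.03 and -0.85 in controls and -0.225, -0.28 and -0.15 in dKO oocytes, with no overlap (exact two-sided permutation p = 0.1, 0.12 adjusted).

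The 6 calls differed in how they fared when 1 library was left out. Leaving out any 1 control library ended 5 of them and left Pole2 (limma adjusted p 0.0337 to 0.0475). The count of falls was then 1 and that of rises 0, while over all tested genes the falls went from 798 to between 231 and 262. In these runs the log2 change of Cdc6 was -0.775, -0.788 and -0.767, against -0.777 with all 6 libraries. Its SE was 0.277 to 0.283, against 0.219. That of Mcm9 was 0.889, 0.782 and 0.906, against 0.859, with an SE of 0.297 to 0.302, against 0.244. A call lost with 1 control fewer therefore need not have hung on that library. Leaving out dKO replicate 3 also ended the calls of Fen1, Mcm9 and Pold2 and added that of Rfc1 (log2 change -0.59, limma adjusted p = 0.0168). Mcm9 also lost its call without dKO replicate 2, and Pold2 without dKO replicate 1. Without dKO replicate 2, 8 replication genes fell, the additional ones being Cdt1, Mcm6, Mcm10 and Pola2, and 1 rose, while falls over all tested genes went to 1465.

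The calls of all tested genes depended on level. None of the 46 replication genes lay under 3 FPKM, where 26.5% of 2707 genes rose and 3.73% fell. Of the 12 replication genes with a mean of 3 to 10 FPKM, 1 rose and 3 fell, where 16.7% and 5.28% of the 3408 genes of that level did. Of the 21 with 10 to 30 FPKM, 1 rose and 1 fell, where 7.37% and 9.14% of 3052 genes did. None of the 11 with 30 to 100 FPKM and none of the 2 over 100 FPKM passed, where 9.98% and 14.5% of all genes of those levels fell. Median log2 changes of the replication genes were -0.13, -0.17, -0.19 and -0.12 in the 4 classes from 3 FPKM up. Those of all tested genes were 0.062, -0.096, -0.17 and -0.29. Across the 46 genes, level and change had a Pearson correlation of -0.007, given as a description since all 46 points come from the same 6 libraries.

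**Figure D4:**
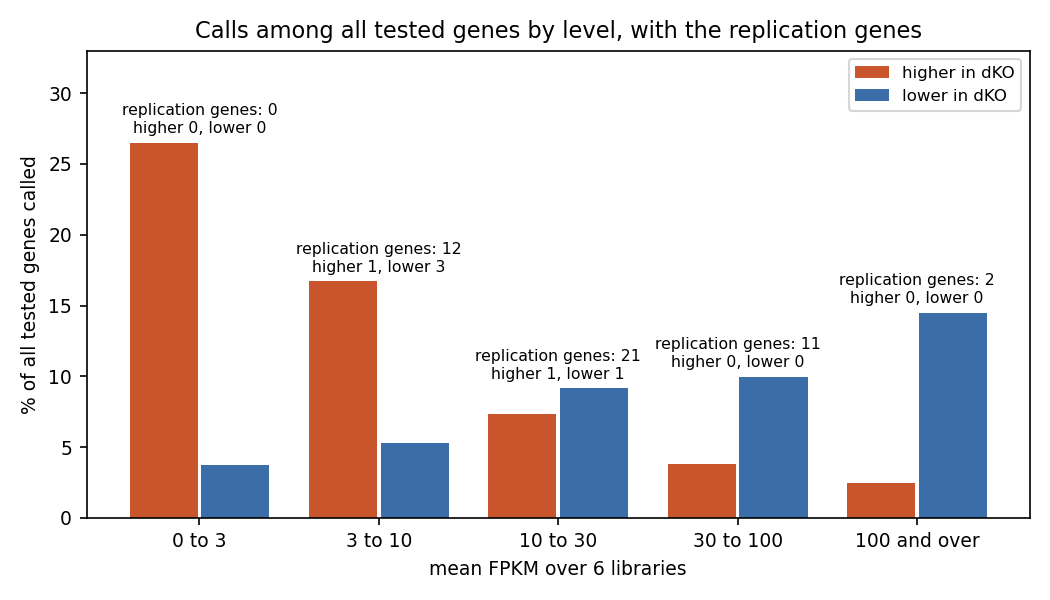
Share of all 11334 tested genes called higher (orange) or lower (blue) in dKO oocytes, by mean FPKM over the 6 libraries, with the number of replication genes in each class and their calls above the bars. Rises dominate among low genes and falls among abundant ones, and no replication gene over 30 FPKM was called.

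Among 77 other genes of replication and S phase 72 were tested, 4 rose (5.56%) and 2 fell (2.78%), with a median log2 change of 0.025. Both shares were below those of all tested genes, 14.0% and 7.04%. Of the rises, 3 were in the list of S-phase cyclins, kinases and inhibitors, where 13 of 14 genes were tested and 0 fell. Ccne1, the cyclin E that with Cdk2 drives entry into S phase, stood at 1.93, 1.3 and 1.26 FPKM in controls against 5.86, 5.70 and 6.15 FPKM in dKO oocytes. The dKO libraries were close to each other and far above the controls, at a log2 change of 1.48 ± 0.20 (SE), with a limma adjusted p of 0.000985. The inhibitors of cyclin-dependent kinases Cdkn1c and Cdkn1a also rose. Cdkn1c stood at 3.01, 3.58 and 4.17 FPKM in controls against 43.1, 36.2 and 19.9 FPKM in dKO oocytes, a log2 change of 2.83 ± 0.28 (SE), with a limma adjusted p of 0.000193. Cdkn1a stood at 1.81, 1.75 and 2.85 FPKM in controls against 4.05, 6.70 and 4.63 FPKM in dKO oocytes, a log2 change of 0.96 ± 0.24 (SE), with a limma adjusted p of 0.0228. Both inhibitors were higher in every dKO library than in every control.

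Among 16 E2F and pocket protein regulators 14 were tested, 1 rose and 1 fell. E2f8, an atypical E2F that represses S-phase genes, stood at 3.73, 4.06 and 2.84 FPKM in controls against 6.08, 7.97 and 10.54 FPKM in dKO oocytes (log2 change 0.999; limma adjusted p = 0.0182). Mybl2, which activates later cell cycle genes with the MuvB complex, stood at 74.85, 80.2 and 74.7 FPKM in controls against 29.3, 53.4 and 42.75 FPKM in dKO oocytes (log2 change -0.90; limma adjusted p = 0.0172). Neither gene overlapped between groups. Of 9 fork protection and cohesion genes 8 were tested, with a median of -0.027 and 1 call, Chtf18, which encodes the large subunit of an alternative clamp loader. It stood at 2.53, 2.915 and 2.39 FPKM in controls against 0.650, 1.51 and 1.504 FPKM in dKO oocytes (log2 change -0.72; limma adjusted p = 0.0474).

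Of these 6 calls, those of Ccne1 and Cdkn1c held in every alternative run. Mybl2 lost its call in 4 of 15 alternatives, when any 1 control was left out (limma adjusted p 0.0611 to 0.06995) and with no filter on low values (0.0512). E2f8 lost its call without control replicate 1 or 3 (0.0611 and 0.0855). Cdkn1a lost its call in 4 of 14 alternatives, without control replicate 1 or 2 (0.0977 and 0.103), after quantile normalization (0.0667) and with no filter (0.0614). Chtf18 lost its call in 7 of 14 alternatives, when any 1 control was left out (0.11 to 0.162), without dKO replicate 1 (0.0937), with a pseudocount of 0.1 or 0.5 FPKM (0.0650 and 0.0525) and with no filter (0.108).

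No gene passed in the lists of origin firing factors (7 tested), other replisome enzymes (10), nucleotide supply (10) and replication-coupled chromatin assembly (10), whose median log2 changes were -0.20, -0.020, -0.014 and -0.28. Their most abundant genes were Ticrr, Top1, Rrm2b and Dnmt1. Ticrr, which brings Cdc45 to origins, stood at 99.1, 102 and 98.8 FPKM in controls against 47.8, 70.0 and 98.6 FPKM in dKO oocytes. Dnmt1, the maintenance DNA methyltransferase that acts behind the fork, stood at 780, 755 and 763 FPKM in controls against 264, 509 and 758 FPKM in dKO oocytes. For both, dKO replicate 3 was close to the controls and dKO replicate 1 was far below them. Pold4, the small subunit of polymerase delta, was picked out after its values were seen. With the replicate block it fell (limma adjusted p = 0.0308), which it did not without the block (0.0765). It stood at 2.09, 2.66 and 2.49 FPKM in controls against 0.55, 2.08 and 0.08 FPKM in dKO oocytes.

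**Figure D5:**
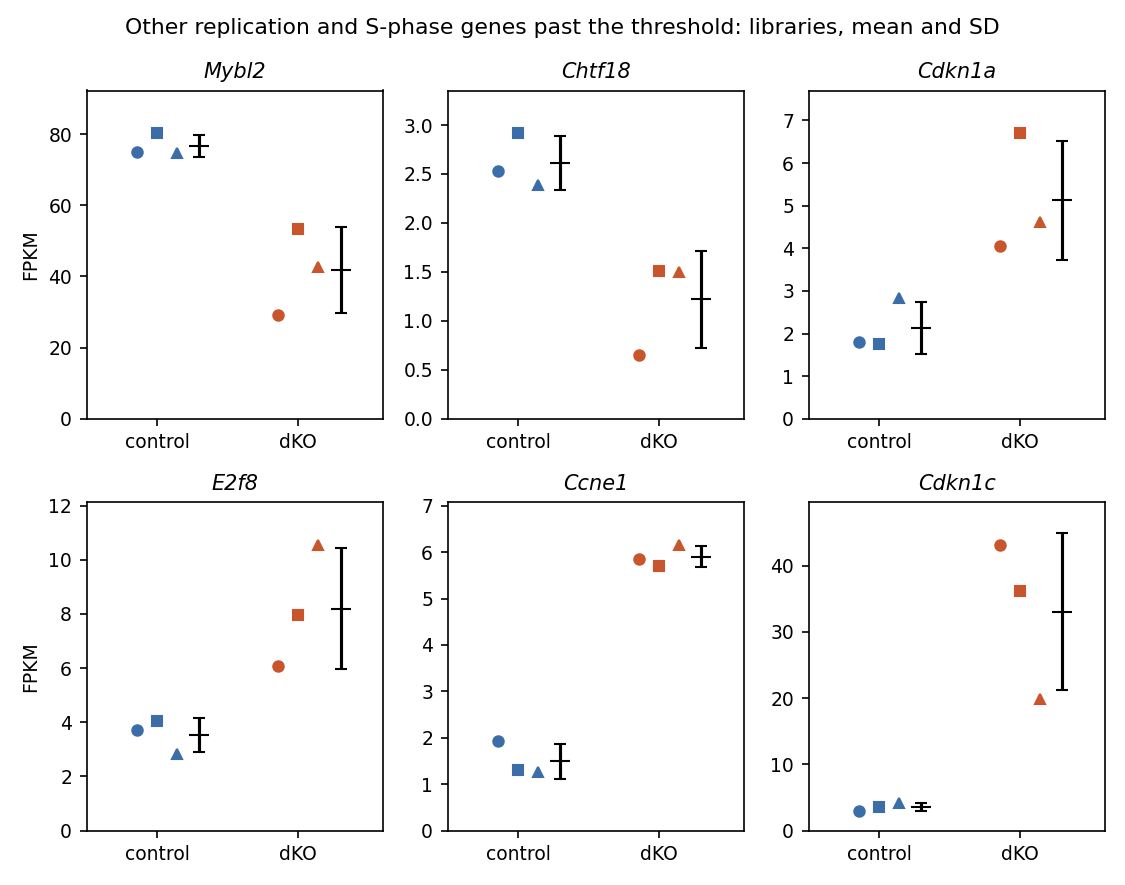
FPKM of the 6 other replication and S-phase genes past the threshold in each library (circle, square and triangle for replicates 1, 2 and 3), with the group mean and SD (n = 3). Mybl2 and Chtf18 are lower in all dKO libraries, and Cdkn1a, E2f8, Ccne1 and Cdkn1c are higher.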

How the data were processed

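The deposited values are FPKM in a table of 6 libraries. According to the submitters' processing notes the tools were TopHat2 2.0.11 and Cufflinks 2.0.2 and the build mm9. What each tool did, the annotation, the strandedness and the scaling: none of these is given in the sources used here. Of 24525 rows, 497 full duplicates were removed. The 11334 genes that reached 1 FPKM in 3 or more libraries entered a limma fit (3.58.1, under R 4.3.3) of log2(FPKM + 1), two-sided and unpaired, with a variance trend and a threshold of 0.05. Changes on the log2(FPKM + 1) scale understate those of low genes.

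The labels give 1 mouse per library but do not state that the mice differed, so p-values measure the spread between libraries. Per the labels, equal replicate numbers mark a common sequencing lane, and the paired deviations from the group means correlated at 0.147, 0.107 and 0.0637. The number was used as a block in one alternative fit. The index sequence was the same within each group and differed between them, and its effect cannot be told apart from that of genotype.

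The replication genes and the other lists were chosen with earlier results of these data known. Every library's value was given for each called gene, the helicase subunits and the most abundant gene of each uncalled complex, and, added after the values were seen, for some others. Overlaps of exons were read from GENCODE vM21 (GRCm38), where those of 17 of the 47 genes overlap another gene. Depth relative to control replicate 1 was the commonest ratio among values under 0.3 FPKM. Alternatives were other pseudocounts, filters, scalings and variance models, the block, and leaving out single libraries.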

Additional observations from a re-analysis of the deposited data

How the results depend on the processing

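Over 15 alternatives 33 of the 46 tested replication genes kept the sign of their change. Rfc2 and Rfc5 had 14 alternatives, since they did not pass the filter at 5 FPKM. The number that rose was 2 and became 1 with no filter on low values, where Mcm9 lost its call. It became 1 after quantile normalization, 1 with array weights and 1 with the replicate block, each of which ended the call of Fen1 and of no other of the 46 genes. It was 0 to 2 when 1 library was left out. The number that fell was 4 and became 2 with no filter, which ended the calls of Cdc6 and Pold2, and 1 to 8 when 1 library was left out. Over all tested genes rises went from 1587 to 655 with a filter at 5 FPKM, which cut the number tested from 11334 to 7418. Falls went from 798 to between 231 and 1465 when 1 library was left out. The cause of these shifts was not tested.

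No called gene changed sign. After quantile normalization the log2 change was 0.0032 for Orc1, 0.0078 for Mcm5, 0.0815 for Gins4, 0.1068 for Dbf4, 0.0449 for Pole3, 0.1214 for Pole4 and -0.1167 for Rfc4. With array weights it was 0.0324 for Gins4 and 0.0022 for Pole4. When 1 library was left out, it ran from -0.199 to 0.0086 for Orc1, -0.3037 to 0.1316 for Orc4, -0.1976 to 0.1898 for Mcm5, -0.1388 to 0.1204 for Gins4 and -0.1955 to 0.1216 for Dbf4. It ran from -0.027 to 0.0719 for Pola1, -0.3131 to 0.0552 for Prim2, -0.4424 to 0.1867 for Pole3, -0.1711 to 0.0962 for Pole4, -0.2158 to 0.0153 for Rfc2, -0.1175 to 0.2716 for Rfc4, -0.029 to 0.3268 for Pcna and -0.1853 to 0.0179 for Rpa2. Absolute depth is unknown, so no counting error is given for low genes such as Pold1.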

Other observations

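The dKO libraries did not depart from the controls to the same extent. The median deviation of the 46 tested replication genes from their control mean was -0.27 log2 units in dKO replicate 1, -0.055 in dKO replicate 2 and -0.31 in dKO replicate 3, where all tested genes had -0.014, 0.082 and -0.076. Of the 46 genes, 21 had their lowest value of the 6 libraries in dKO replicate 3, 15 in dKO replicate 1 and 2 in dKO replicate 2. The same count over all tested genes was not made. The summed FPKM of all 47 genes was 1286, 1275 and 1319 in controls and 1144, 1240 and 1038 in dKO oocytes. The sum over the whole table was also lower in dKO libraries, at 278701, 309549 and 278838 against 318273, 318471 and 327480 in controls. The median SD of the 46 genes was 0.108 log2 units in controls and 0.263 in dKO oocytes, against 0.141 and 0.316 over all tested genes.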
